A study of Sus scrofa with 8 samples.

Results

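The mitochondrial SNP sites of pig liver RNA were described across 8 pools of animals. A site belonged to this set when the deposited table of all SNP sites placed it on the mitochondrial genome of the pig assembly Sscrofa11.1, and 203 of 269579 sites did. A pool was counted as carrying the variant when its letter differed from the reference base, and an asterisk stood for no reads. Sites are named here by reference base, position and variant base, counted from 1 on the reference strand, so that C4675T has C in the reference and T in the pools that carry it.

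The RNA came from livers of 24 male Large White x Landrace pigs, pooled by 3 in equal amounts before sequencing. The feed of every pig was steatotic, that is, composed to bring about fatty liver with inflammation: it supplied sugar (fructose), bile components (cholesterol and cholate) and saturated fat in excess and was poor in choline and methionine, nutrients that the liver uses to export fat. The 4 control pools came from 12 pigs that stayed on this feed, and the 4 squalene pools from 12 pigs that received it with 0.5% squalene, a triterpene of olive oil. Single animals cannot be told apart within a pool, and RNA with a poly(A) tail was selected before sequencing. The tissue label was borne out by transcripts of hepatocytes. ALB, which encodes serum albumin, had the highest FPKM of all genes in each pool (24083 to 49354), and TTR, APOA1, TF and FGB were each among the top 17. SERPINA1, the remaining hepatocyte transcript looked up, was lower (958 to 2077 FPKM) and within the top 87 in each pool.

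The mitochondrial genome is a small circular DNA that passes from the mother to her offspring, is present in many copies per cell and does not recombine in the way nuclear chromosomes do, so that variants on a maternal lineage travel together as a haplotype. It encodes core subunits of respiratory complexes I, III and IV and of ATP synthase, the ribosomal RNAs of the mitochondrial ribosome and a set of tRNAs, while the control region holds the promoters and an origin of replication. Both strands are transcribed as long precursors, and the tRNAs that lie between the coding genes are cut out of them. In mammals, transitions (A with G, C with T) greatly outnumber transversions in this genome. In liver, the proteins it encodes serve the respiratory chain that takes up electrons from the oxidation of fatty acids.

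The reference sequence (16613 bases, breed Landrace in the assembly's record) is printed around the sites that the results below turn on, with the site in capitals. The tRNA sites come first because 2 of them were the only sites of the 203 with 3 different letters, counting the reference base and those of the pools.
tRNA-Lys, MT:8893-8905, A8899G and A8899T: ttgagaAgctagt
tRNA-Thr, MT:16481-16496, C16487T, A16490C and A16490T: agtcttCgtAgtatat
tRNA-Phe, MT:1216-1245, A1225G and T1236C: gcctagatgAgcctcacagcTccataaaca
The control region pair is shown with the reference bases and then with both variants, since together they would extend a tandem repeat.
control region, MT:692-718, reference: gggacataacgtAcAtacacgtgcgta
control region, MT:692-718, A704G and A706G: gggacataacgtGcGtacacgtgcgta
The last set holds the sites that changed an amino acid and were carried by at least 2 pools but not by all, with a synonymous neighbour in ATP8 (T9078C).
ND1, MT:4665-4685, C4675T: cccacacacaCcagaactata
ND2, MT:5791-5811, G5801A: caaaatacccGtcatcacaag
ATP8, MT:9067-9088, T9077C and T9078C: ccagaatcaaTTgaactcaaaa
ATP6, MT:9279-9299, T9289C: tccaaacaaaTaatagctatt
COX3, MT:9941-9961, C9951T: ttaaccaataCtttgacaata
ND4, MT:11395-11415, G11405T: cccataacatGaatatctaaa
ND4, MT:12429-12449, A12439G: atgatgactaAtagcaagcct
ND5, MT:14208-14228, C14218A: gaattatcttCtttgcattcc
CYTB, MT:16271-16291, A16281G: caaacaacgaAgcataatatt

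Most sites differed from the reference in the same way in every pool. The variant was carried by all 8 pools at 118 of the 203 sites (58.1%), and 85 sites were carried by fewer. The numbers of sites carried by 1 to 7 pools were 6, 8, 14, 9, 19, 20 and 9, in that order. Of the 6 sites carried by a single pool, T3492C in 16S ribosomal RNA and G6738A in COX1 had reads in all 8 pools, and control pool 1 carried both. Reads covered 194 sites in all pools. Of the 118 sites with a variant in all pools, 99 were also in the deposited table of sites that the authors marked as passing in every sample, and 19 were not. Nuclear sites of the same table were distributed differently, with 10.8% carried by all pools and 51.2% by a single pool, against 2.96% by a single pool in the mitochondrial genome. Coverage moved with this contrast, since 96.1% to 99.5% of mitochondrial sites but 63.3% to 69.2% of nuclear sites had reads in a given pool. Among sites with reads in all 8 pools, 60.8% of the mitochondrial and 25.6% of the nuclear sites were carried by all of them. A single pool carried 1.03% of these mitochondrial and 17.5% of these nuclear sites. The sites of a genome are not independent replicates, and no test was made of these shares.

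**Figure D1:**
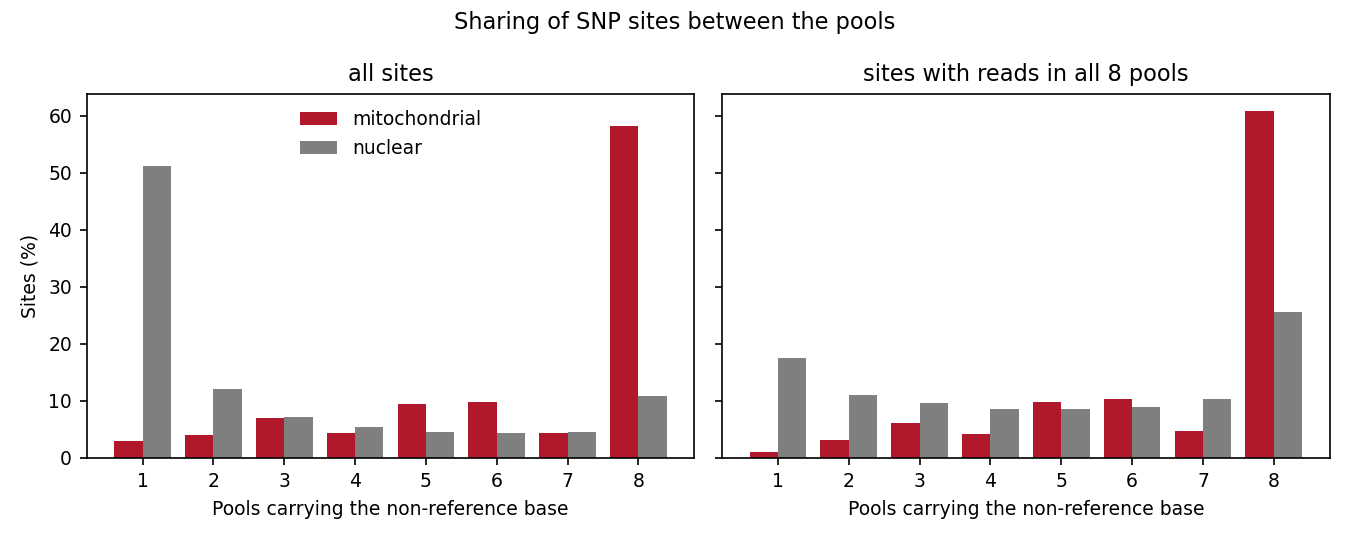
Share of mitochondrial (red) and nuclear (grey) SNP sites, in percent of the sites of each genome, by the number of pools that carried the non-reference base. The left panel holds all sites and the right panel those with reads in all 8 pools, and in both the mitochondrial sites are most frequent at 8 pools (58.1% and 60.8%).

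Transitions made up 181 of the 203 sites and transversions 21, and the tRNA-Lys site held both kinds. Exchanges between C and T in either direction numbered 115 and those between A and G 66. Seen by the reference base, the sites were least frequent at A, with 7.46 sites per 1000 such bases, and reached 13.7 at T, 14.7 at C and 16.8 at G. G is the rarest base of the reference strand (13.3%) and A the most frequent (34.7%). The 5 G-to-C sites, G4053C, G4112C, G4154C, G12640C and G13298C, were all carried by every pool. Transversions were carried by all pools at 13 of 21 sites (61.9%) and sites with a transition at 105 of 182 (57.7%).

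Within each pool, transitions were a larger share of the non-reference sites in the mitochondrial genome (88.5% to 91.4%) than in the nuclear genome (74.8% to 75.2%). The mean difference was 15.1 percentage points (SD 1.05, n = 8 pools), with the mitochondrial share higher in 8 of 8 pools. A two-sided exact sign-flip permutation test gave p = 0.0078125, the smallest p that 8 pools can give. It was the same after Benjamini-Hochberg adjustment over 2 such comparisons. The test cannot decide the question, because sites carried by all pools fix the direction in each of them. A transition was carried by all pools at 105 sites, against 21 transversion sites in the whole mitochondrial genome. Against nuclear sites in coding exons alone the difference was 9.96 points. Because the pools had most mitochondrial sites in common, the 8 values are not independent, and the p counts pools and not separate mitochondrial lineages. The variant was also carried at a larger share of the covered sites in the mitochondrial genome (73.8% to 92.3%) than in the nuclear genome (51.9% to 55.3%), by 29.7 points (SD 6.32). The sign-flip test of this share, the second of the 2 comparisons, is not read as a result. Sites carried by every pool, 58.1% of the 203, fix the direction in all pools. A site is also in the table only because some pool differed from the reference.

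The sites were spread over the genome from position 109 to position 16604, with a median distance of 59.5 bases to the next site and a largest of 384 bases, from 10021 to 10405 in COX3. All 203 lay in an annotated gene or the control region. The 13 protein-coding genes held 157 sites (13.8 per kilobase), the 2 rRNA genes 24 (9.48 per kilobase), the 22 tRNA genes 13 (8.63 per kilobase) and the control region 9 (7.66 per kilobase). The share carried by all pools was 64.3% in protein-coding genes, 37.5% in rRNA genes, 38.5% in tRNA genes and 33.3% in the control region. Among the protein-coding genes ATP8 had the most sites for its length, 5 in 204 bases or 24.5 per kilobase, followed by ND2 with 21.1 and ND6 with 18.9. COX3 had the fewest, 7.65 per kilobase, followed by COX2 with 8.72. ATP8, the small membrane subunit of ATP synthase, and COX3, a core subunit of cytochrome c oxidase, lie close together on the genome with ATP6 between them. The genes also differed in how many of their sites varied between pools, from 1 of 8 in ATP6 and 3 of 21 in ND5 to 9 of 16 in ND1 and 3 of 5 in ATP8. The tRNA-Thr gene had 44.1 sites per kilobase, which corresponds to 3 sites in 68 bases, and 13 tRNA genes had none. All rates per kilobase are over annotated length, and which bases without a site had reads is not known. In RNA selected for a poly(A) tail, low rates or genes without a site were therefore not read as less variation.

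**Figure D2:**
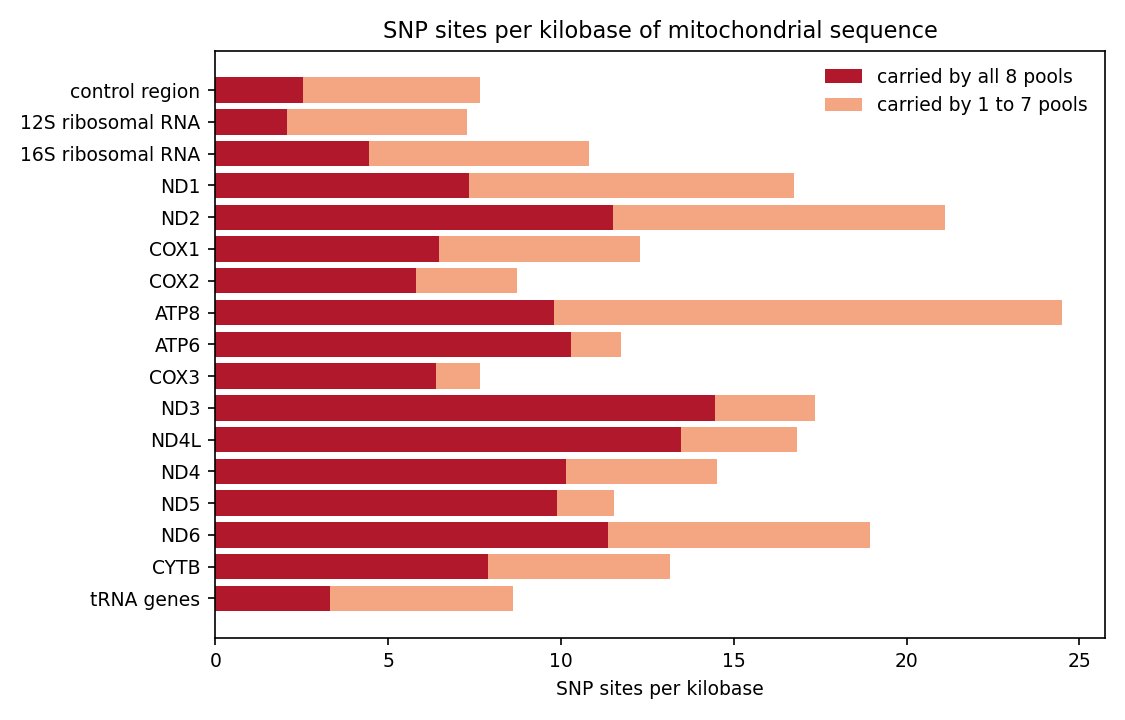
SNP sites per kilobase (horizontal axis) in the control region, the rRNA genes, each protein-coding gene in genome order and the 22 tRNA genes together, split into sites carried by all 8 pools (dark) and by 1 to 7 pools (light). ATP8 has the longest bar of the protein-coding genes at 24.5 per kilobase and COX3 the shortest at 7.65. Lengths are annotated lengths, whether or not reads covered them.

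The 157 coding sites gave 159 codon effects, because 2 sites lay where ATP8 and ATP6 overlap in different frames. Read with the vertebrate mitochondrial code, 124 effects were synonymous and 35 (22.0%) changed the amino acid that the triplet stands for. The 35 include a start codon in ND2, where translation begins with methionine in either form, and without start codons 34 of 158 effects (21.5%) were changes. The third codon position held 118 of the effects (74.2%), of which 2 changed the amino acid. The first position held 23 with 15 changes, and the second held 18 with 18 changes. None of the 13 reading frames had an internal stop codon in the reference. Of the effects carried by all pools 25 of 103 (24.3%), the start codon included, were changes, and of those carried by fewer pools 10 of 56 (17.9%). Of the 35 changes, 34 were carried by at least 2 pools, and the exception was L346P in ND2, carried by squalene pool 3, without reads in control pools 3 and 4 and squalene pool 2.

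The changes were counted by respiratory complex, without a test, since sites are not replicates. Complex I takes electrons from NADH, and its 7 mitochondrial subunits (ND1 to ND6 and ND4L) held 100 effects, of which 25, with the ND2 start codon counted, were changes (25.0%). They were 7 in ND5, 5 in ND2, 4 each in ND1, ND3 and ND4 and 1 in ND4L. ND6, the subunit encoded on the opposite strand, had 10 sites, all synonymous. In ATP synthase, which makes ATP from the proton gradient, 7 of 13 effects in ATP6 and ATP8 changed the protein (53.8%), or 23.7 changes per 1000 codons against 11.8 in complex I. Cytochrome c oxidase, the terminal oxidase, had 2 changes in 31 effects (6.45%), both in COX3, and COX1 and COX2 had 0 changes in 19 and 6 sites. CYTB, a haem-bearing subunit of complex III, had 1 change in 15 effects (6.67%).

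Changes carried by all 8 pools separate the calls of every pool from the reference sequence and not the pools from each other. Whether errors in the reference sequence or in calling had a part in them was not tested. In ND1 they were V56F, G64A and G78A, that is, in the notation of proteins, valine of codon 56 replaced by phenylalanine and so on. ND2 had I1M, M100L and M211T. The first of these, T5089A, altered the start codon from ATT to ATA, both of which serve as start codons in this code, so that no other residue follows from it. The other changes carried by all pools were 2 in ATP8, 3 in ATP6, 1 in COX3, 4 in ND3, 1 in ND4L, 2 in ND4 and 6 in ND5. In ND3, which in mammals has a loop that moves when complex I switches between resting and active states, L8F, A29T, I96T and A114T were carried by every pool.

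Besides L346P, 9 changes were carried by 2 or more pools and not by all, and they fell into a small number of distributions. P252S in ND1 (C4675T) and I40T in ATP8 (T9077C) were carried by control pools 2, 3 and 4 and squalene pools 1 and 2, and the other 3 pools had the reference base. The ATP8 site has a neighbour, T9078C, in the same codon and with the same distribution. Together the variants would give ACC where the reference has ATT, which stands for threonine as with T9077C alone. Letters per pool do not show whether both lie on the same molecules. V239I in ND2 (G5801A) was carried by the same 5 pools and squalene pool 4. M57T in ATP6 (T9289C) and F428L in ND5 (C14218A) were carried by control pools 2, 3 and 4 and squalene pool 1. W16L and M361V in ND4 (G11405T and A12439G) and S314G in CYTB (A16281G) had the opposite distribution to the first pair, with the variant in control pool 1 and squalene pools 3 and 4 and the reference base in the other 5. T51I in COX3 (C9951T) was carried by 6 pools, while control pool 2 and squalene pool 1 were called with the reference base. A reference letter does not show that every animal of a pool lacked the variant. Each of these 9 sites had reads in all 8 pools, and each was carried by at least 1 pool of either diet.

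These distributions recurred at many other sites. The most frequent after that of all 8 pools, variant in control pools 2, 3 and 4 and squalene pools 1 and 2, was found at 16 sites in 6 genes. They were 2 in 16S ribosomal RNA, 5 in ND1, 4 in COX1, 1 in COX2, 3 in ATP8 and 1 in tRNA-Thr, and 15 of the 16 lay between positions 2534 and 9078. The exact opposite, variant in control pool 1 and squalene pools 3 and 4, was found at 5 sites from 10952 to 16281, in ND3, ND4 and CYTB. The distribution in which control pool 2 and squalene pool 1 alone had the reference base was found at 13 sites in 6 genes from 501 to 16391. Another, with the variant in control pool 3 and squalene pool 4, was found at 4 sites, in the control region, ND2, ND5 and CYTB.

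**Figure D3:**
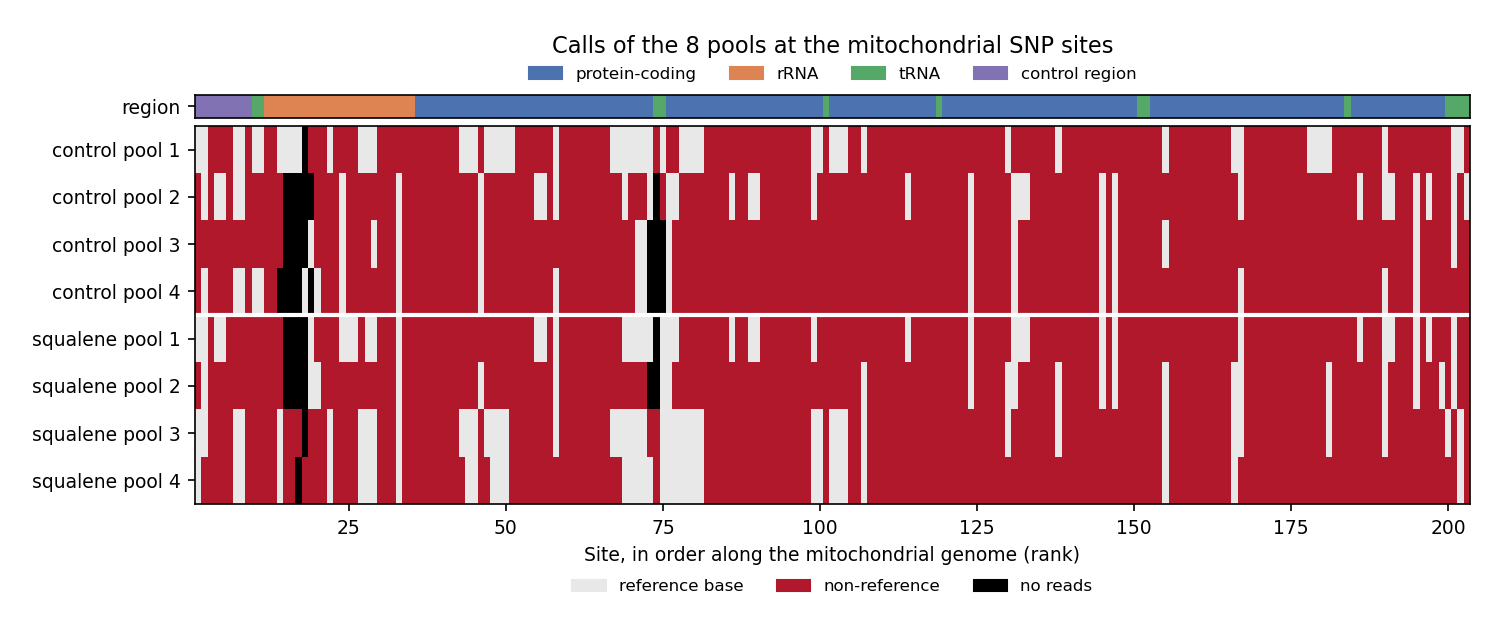
Call of each pool (rows) at each of the 203 sites in their order along the mitochondrial genome (horizontal axis, rank of the site), with the reference base in light grey, the variant in red and no reads in black; the strip above gives the kind of region. Control pool 1 and squalene pools 3 and 4 have the reference base at the same runs of sites, while control pool 2 and squalene pool 1 have it together at others, and every pool has the variant at 118 sites.

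Counted over all sites, the pools were close to some pools of the other diet. The number of sites at which 2 pools had different calls ranged from 12, for control pools 3 and 4, to 64, for control pools 1 and 2. Control pool 1 differed from squalene pools 3 and 4 at 15 and 23 sites, and those from each other at 14. These 3 pools differed from the other 5 at 37 to 64 sites. Control pool 2 differed from squalene pool 1 at 14 sites. Control pools 3 and 4 each differed from squalene pool 2 at 15. As a share of the sites with reads in both pools, the mitochondrial differences ran from 6.19% to 32.5%, and the nuclear differences from 31.9% to 36.0%. Mitochondrial calls were compared by letter, nuclear calls only by whether the variant was carried. The mean over pairs of different diets was 35.2 sites and over pairs of the same diet 39.4, a difference of -4.23 sites (two-sided exact permutation test over 70 assignments of 8 pools, p = 0.457). Without control pool 1 the difference was 0.472, so its direction rested on that pool. After adjustment over the 10 comparisons of the diets p was 0.952.

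**Figure D4:**
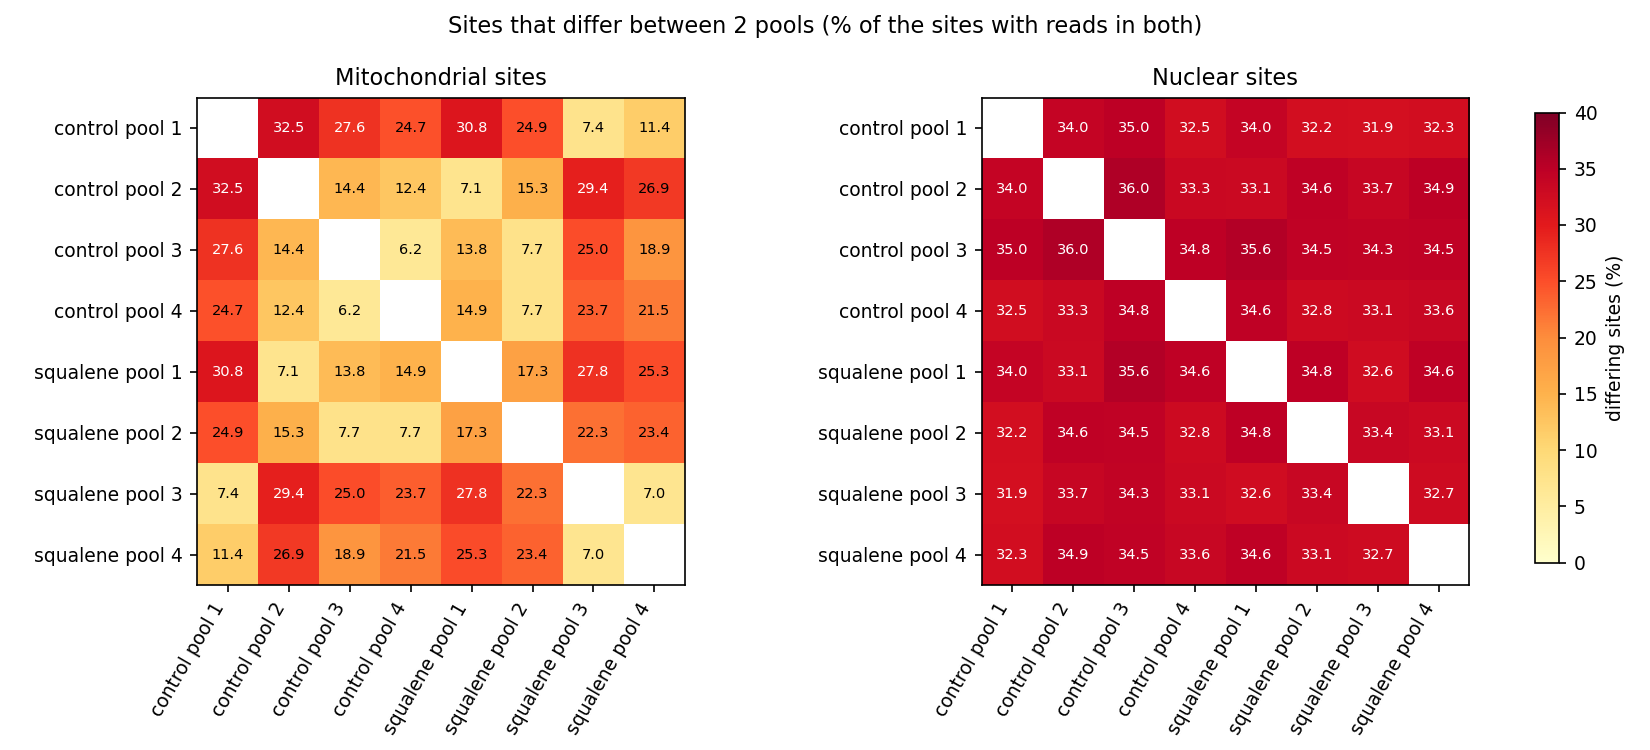
Share of sites, in percent of the sites with reads in both pools, at which 2 pools had different calls, for mitochondrial sites (left) and nuclear sites (right) on the same colour scale. Mitochondrial shares range from 6.19% to 32.5%, with low values between control pool 1 and squalene pools 3 and 4, and nuclear shares stay between 31.9% and 36.0%. Mitochondrial calls were compared by letter, nuclear calls only by whether the variant was carried.

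The tRNA genes held 13 sites in 9 genes. Both sites with 3 letters lay at base 9 of their tRNA, counted from its 5′ end. At A8899 in tRNA-Lys, control pools 1 and 2 and squalene pools 3 and 4 were listed with both G and T, and control pools 3 and 4 and squalene pools 1 and 2 with G. It was the only mitochondrial site at which a pool had more than a single letter. At A16490 in tRNA-Thr, control pool 4 and squalene pool 4 had T, squalene pool 3 had C, and the other 5 pools had the reference A. The groups overlapped at both sites. Sites with 3 letters were 2 of 203 mitochondrial sites (0.985%) and 241 of 269376 nuclear sites (0.0895%). In human mitochondria, a purine at base 9 of most tRNAs is methylated at N1 by a complex of TRMT10C and HSD17B10, and this modification is known to cause misreading when RNA is copied into cDNA. With RNA reads alone, a variant in the DNA and a modified base cannot be told apart here. The same holds for the other sites, among them A3223T in 16S ribosomal RNA, a transversion called in all pools.

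The other tRNA sites had a single variant base. In tRNA-Phe, A1225G and T1236C had the same distribution, with the reference base in control pools 1 and 4 and the variant in the other 6 pools. Besides base 9, tRNA-Thr had C16487T at its base 6, with the variant in every pool but squalene pool 3, and G16531A at base 50, with the distribution of the 16 sites above. T16604C in tRNA-Pro was carried by every pool except control pool 2. T10601C in tRNA-Gly, A12879G and C12883T in the second tRNA-Leu gene and T15283C in tRNA-Glu were carried by all pools. G6265A in tRNA-Ala was called in control pool 1 and squalene pools 3 and 4, and the other 5 pools had no reads there. T6429C in tRNA-Cys was called in control pool 2, with no reads in control pools 3 and 4.

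Reads were missing in some pool at 9 sites, and these were 5 in 12S ribosomal RNA, 1 in 16S ribosomal RNA, 1 in ND2 and the last 2 named tRNA sites. G1977A and T1980A in 12S ribosomal RNA had reads in control pool 1 and squalene pools 3 and 4 alone, with the reference base in the first and the variant in both squalene pools. Those 3 pools lacked reads at 1 site each and the other 5 at 5 to 8 sites. They are the same pools that had distributions of calls in common. Whether depth or read alignment had a part in those distributions was not tested. Over the 194 sites with reads in all pools the distributions named above for 16, 13 and 5 sites are the same, since each of those sites had reads in all pools. The rRNA genes otherwise had 17 sites in 16S, of which 7 were carried by all pools, and 7 in 12S, of which 2 were.

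In the control region 3 of 9 sites were carried by all pools (C390T, A575G and T1057C), and all 9 were transitions. A704G and A706G were both carried by control pool 3 and squalene pools 1 and 2. They lie just before a tandem repeat of 10 bases, tacacgtgcg, which filled MT:707-842 of the reference with 13.6 copies. With both variants on the same molecule the repeat would begin at position 700, which adds 7 bases. Whether read alignment at the edge of the repeat had a part in these calls was not tested. No site was called within the 136 bases of the repeat. Repeats of this kind vary in copy number between pigs, and the count of 0 was not read as an absence of variation. A501G and T560C had the distribution in which control pool 2 and squalene pool 1 kept the reference base.

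The diets were compared by the number of sites per pool. The variant was carried at 149, 163, 181 and 174 sites in control pools 1 to 4 and at 158, 174, 156 and 167 sites in squalene pools 1 to 4. The ranges overlapped, and the control pools held both the lowest and the highest value. The means were 167 ± 14.0 and 164 ± 8.34 sites (SD, n = 4 pools each), a difference of -3.0 sites, with p = 0.8 by a two-sided exact permutation of the pools and 1.0 after adjustment over 10 comparisons. Leaving out each pool in turn gave -8.92 to 1.75 sites, with the sign turned without control pool 3. As a share of the covered sites the variant was carried at 84.5% ± 8.21 in control and 82.0% ± 4.76 in squalene pools, a difference of -2.51 points (exact p = 0.571, adjusted p = 0.952), which became 0.0945 points without control pool 3. With 4 pools a group the smallest p this test can give is 0.0286, and n of 4 limits it to large differences. As the labels do not tell how animals were assigned to pools, the p-values measure the spread between pools of 3.

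By region and type the diets overlapped as well. Protein-coding genes held 121 to 146 sites with a variant in control and 124 to 139 in squalene pools. The rRNA genes held 15, 17, 16 and 15 in control pools and 13, 17, 17 and 17 in squalene pools, and the tRNA genes 8, 10, 10 and 9 against 10, 10, 10 and 11. The control region held 5, 4, 9 and 6 against 5, 8, 5 and 6. The largest difference relative to the spread was that of the tRNA genes, 1.0 site more in squalene pools (exact permutation p = 0.286, adjusted p = 0.952). Transitions differed by -3.75 sites (exact p = 0.714) and transversions by 0.75 sites (exact p = 0.571), with adjusted p of 1.0 and 0.952. Without control pool 3 the difference in transitions was 1.0, over sites with reads in all pools that in transversions was -0.25 and that in rRNA sites -1.5 (0.25 over all sites), and the latter was -0.0833 without squalene pool 2, 3 or 4. Covered sites differed by 2.25 (exact p = 0.314, adjusted p = 0.952).

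No mitochondrial site separated the diets. A variant in all 4 pools of a diet with the reference base in all 4 of the other was found at 0 of 203 mitochondrial sites, and at 239 of all 269579 sites (0.0887%), or 239 of the 113408 with reads in all pools (0.211%). At shares this small, a count of 0 in 203 sites says nothing particular about the mitochondrial sites. Over the 203 sites, the number of carrying pools was equal in both diets at 143, differed by 1 at 48 and by 2 at 12, and by 3 or 4 at 0. Of the 12, more control pools carried T109C in the control region, A3009G in 16S ribosomal RNA, C6013T in ND2, G6762A in COX1, T9289C in ATP6 and C14218A in ND5, each with 3 control pools against 1 squalene pool. More squalene pools carried A1225G and T1236C in tRNA-Phe (4 against 2), T2679C in 16S ribosomal RNA and T4392C in ND1 (3 against 1), and G1977A and T1980A in 12S ribosomal RNA (2 against 0, with reads in 1 control pool). Of these 12, T9289C (M57T) and C14218A (F428L) change the protein. Among sites with reads in all pools a difference of at least 2 pools was found at 10 of 194 mitochondrial sites (5.15%) and 16842 of 113408 in the whole table (14.9%). Sites carried by every pool cannot differ in this way, and they were 60.8% of these mitochondrial but 25.6% of the nuclear sites. The 2 shares are therefore not a like comparison of the diets.

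Nuclear genes that maintain, transcribe and process the mitochondrial genome were read from the FPKM table. The difference between the diets was fitted with limma over 14780 genes on log2(FPKM + 0.1), and 0.0% of genes passed an adjusted p of 0.05 (0 genes, with 645 at an unadjusted p under 0.05 and a smallest adjusted p of 0.174). Of 18 genes of mitochondrial genome maintenance and transcription 0 were higher and 0 lower, 0 had an unadjusted p under 0.05, and the median log2 difference was 0.00, against -0.01 over all genes tested. Of 21 measured genes of mitochondrial RNA processing and modification 0 passed the adjusted threshold, 1 had an unadjusted p under 0.05, and the median was 0.03. TRMT10C, the methyltransferase subunit named above, had 2.01, 2.67, 1.88 and 1.76 FPKM in control pools and 2.78, 2.36, 2.56 and 2.55 in squalene pools, a log2 difference of 0.30 (SE 0.15, limma adjusted p = 0.9997). The values overlapped, with control pool 2 between the squalene pools. KIAA0391, which encodes the nuclease PRORP that cuts tRNAs at their 5′ ends, had 2.35, 2.51, 2.23 and 2.19 FPKM in control and 3.23, 2.64, 2.48 and 3.16 in squalene pools, a log2 difference of 0.29 (SE 0.13, limma adjusted p = 0.9997). HSD17B10, the partner subunit of TRMT10C, had 217 to 254 FPKM in control and 194 to 226 in squalene pools (log2 difference -0.15, SE 0.10, limma adjusted p = 0.9997). Among the transcription and maintenance genes, the log2 difference was 0.22 (SE 0.11) for TEFM, the elongation factor of the mitochondrial RNA polymerase, and -0.28 (SE 0.14) for MPV17, an inner membrane protein needed to keep mitochondrial DNA in liver, both with a limma adjusted p of 0.9997. TFB1M, an rRNA methyltransferase of mitochondria, and MTPAP, the mitochondrial poly(A) polymerase, had log2 differences of 0.26 (SE 0.13) and 0.24 (SE 0.13). In bulk RNA, fewer cells of a type and less RNA per cell cannot be told apart.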

How the data were processed

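Liver RNA of 8 pools was sequenced on the DNBSEQ platform after poly(A) selection. Filtered reads were aligned by the authors with HISAT2 to the assembly Sscrofa11.1, and they deposited tables of SNP sites that hold a base letter (or other call) per site and pool, and a table of FPKM per gene and pool. The SNP caller, its filters and the depth behind each letter were not given in the sources used here, so no counting interval is given, the depth per site is unknown, and a letter does not tell which share of a pool's reads carried it. Font colours that the authors used to mark calls as passing or failing were not in the text used here. The deposited comparisons of the diets (fold changes, p-values) and splicing tables were not used.

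Groups and pool numbers came from the sample labels. The reference sequence and annotation were RefSeq's of Sscrofa11.1, and the reference base matched at all 203 sites. Codon effects used the vertebrate mitochondrial code, and a codon was changed at a single site at a time. Values per pool were compared between the diets by two-sided exact permutation of 4 against 4 pools, with Benjamini-Hochberg adjustment over 10 comparisons. Mitochondrial and nuclear shares within pools, of transitions and of variant sites, were compared by exact sign flips, with adjustment over these 2. FPKM was compared with limma 3.58.1 in R 4.3.3 on log2(FPKM + 0.1) where the mean reached 0.1 FPKM. Differences in log2 are squalene minus control. Scripts ran in Python 3.11.15 (numpy 2.4.6, pandas 2.3.3) and were checked on simulated data. The FPKM of mitochondrially encoded genes, planned as a comparison, were not analysed here, because no row of the FPKM table matched them. Alternatives left out each pool in turn, kept only sites with reads in all pools, or sites carried by at least 2 pools, or sites outside tRNA genes, left out calls with more than a single letter, used nuclear sites in coding exons, other pseudocounts and filters for FPKM, or the pool number as a block. The sites described, the gene lists and the tests were chosen with earlier results of these data known. Named sites were those carried by all pools (at most 6 amino acid changes named singly by the first positions, and further ones by gene), those with the largest difference in carrying pools between diets, every tRNA site, protein changes in 2 or more pools, sites with 3 or more letters, and the genes with most and fewest sites per kilobase. ND3 changes, HSD17B10, control region sites, the G-to-C sites and the frequent distributions were named after their values were seen.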

Additional observations from a re-analysis of the deposited data

Results flagged for a closer look

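A pool was marked as apart from the other 3 pools of its diet for 2 measures, by its gap relative to the range. In both, the other 3 pools were tied, so a gap of any size would have been marked. Squalene pool 1 carried 13 rRNA sites, while the other squalene pools each carried 17. Squalene pool 4 carried 11 tRNA sites, while the other squalene pools each carried 10, and it was the only squalene pool with a variant at both C16487 and A16490 of tRNA-Thr. Chance marks about 1 in 20 such groups of 4, and counts with tied values are marked more readily.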

How the results depend on the processing

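Of 146 recomputed values of the comparisons, 110 kept their direction and 14 were counts that stayed at 0. Another 9 changed sign and 3 became 0 (covered sites over sites with reads in all pools, and rRNA sites without control pool 1 or 4). The control region difference of 0.0 has no direction, and its 10 recomputed values were above 0 in 3, below 0 in 3 and 0 in the others. No diet difference passed the threshold in any setting. Without control pool 3 the diet difference became 1.75 for sites with a variant, 0.0945 points for their share of covered sites and 1.0 for transitions. Over sites with reads in all pools it became -0.25 for transversions and -1.5 for rRNA sites. Without squalene pool 2, 3 or 4 it became -0.0833 for rRNA sites, and without control pool 1 the pairwise difference became 0.472. Leaving out each pool in turn gave -8.92 to 1.75 for sites with a variant, -6.10 to 0.0945 points for their share, -9.33 to 1.0 for transitions, -0.0833 to 1.25 for rRNA sites and -7.31 to 0.472 for the pairwise difference, with adjusted p of 0.514 or more. The mitochondrial excess of transitions ran from 9.96 to 15.3 points, and that of variant sites from 23.8 to 31.2 points. In the main setting the sites carried by every pool fix the direction of both, so their p-values are not read. The 78 recomputed values of single nuclear genes kept their direction and their side of the threshold.

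Pools of the 2 diets have pool numbers in common, but same-numbered pools did not deviate together (correlations of -0.07 to 0.09 over genes and -0.68 to 0.10 over mitochondrial sites). With the replicate block the difference stayed at -3.0 sites (exact p = 0.875, smallest possible 0.125), and no call changed. The comparison of the expression of mitochondrially encoded genes, their summed share of FPKM and the rescaling without them were not run. Unknown read depth, pools of 3 animals and 4 pools per diet limit what these calls can show.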
